A study of Mus musculus with 3 samples.

Results

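Described here are genes that modify collagen or fold proteins in the endoplasmic reticulum (ER) of bone marrow stromal cells. They were listed by gene symbol, 53 in all. No measured value was used in the list, though it was chosen with earlier results of these data known. A member counted as measured where a probe set of the array carried its symbol alone, and where several did, the brightest of them on average stood for the gene. Of the 53 members, 52 were measured among 19938 genes tested; Fkbp10, which assists lysyl hydroxylation, is not analysed here. Expression was measured on 3 Affymetrix arrays of cells sorted at baseline from the marrow of mouse tibia, femur and pelvis, in a study of which stromal cells supply the chemokine CXCL12 to blood stem cells. CAR cells are CXCL12-abundant reticular cells, sorted here from CXCL12-GFP knock-in mice, with 2 arrays of 2 mice. PaS stands for cells gated as PDGFRa+ and Sca+ but CD45- and lineage-, from Prx1-Cre Rosa26Ai9/+ Cxcl12gfp/+ mice, with 1 array of cells combined from 3 mice. Both groups carry GFP at the Cxcl12 locus, and the PaS mice also carry Cre under the limb mesenchyme promoter Prx1 and the Rosa26 Ai9 reporter, which fluoresces after Cre recombination. Age is not given in the sources used here. Genotype, pooling and cell type differ together and cannot be told apart.

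Collagen chains enter the ER as single strands, where prolyl and lysyl hydroxylases modify them before they wind into a triple helix. The chaperone Hsp47, encoded by Serpinh1, and peptidyl-prolyl isomerases assist the winding, and proteinases outside the cell then trim the propeptides. Other secreted proteins are folded by the Hsp70 and Hsp90 chaperones of the ER, by lectin chaperones and by disulfide isomerases. When unfolded proteins build up, the sensors PERK, IRE1 and ATF6 raise the transcription of chaperone genes and slow translation. Marrow stroma makes and secretes matrix, so it uses this machinery throughout.

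The sort genes were read first, as log2 intensities, in the order CAR array 1 and CAR array 2, then PaS. Cxcl12 stood at 10.94 and 11.11 against 7.76, Pdgfra at 7.52 and 7.97 against 4.33, and Prrx1, whose promoter drives Prx1-Cre, at 7.76 and 8.06 against 5.24. Ptprc, which encodes CD45, stood at 5.11 and 5.01 against 8.27. Ptprc was thus bright in the library labelled PaS although its gate was CD45-, Pdgfra was 10.7-fold lower there than in CAR cells although its gate was PDGFRa+ (limma adjusted p = 0.0119), and every direction below is relative to that library. Ly6a, which encodes Sca-1, is not analysed here. Leukocyte markers summed to intensities of 377 and 457 in CAR cells and 2497 in PaS cells, with 10 of 13 lower in CAR cells by limma. Neutrophil markers summed to 3299 and 3000 against 17132 (9 of 14 lower), macrophage markers to 317 and 344 against 1326 (4 of 14 lower, 1 higher), B cell markers to 156 and 125 against 613 (6 of 10 lower) and endothelial markers to 132 and 118 against 357 (6 of 12 lower). Plasma cells, which are rich in ER, had markers that summed to 116 and 117 against 97.9, with Sdc1 higher and Jchain lower of 8. Of 13 markers of CAR stroma, 13 were higher in CAR cells (11328 and 13073 against 964), as were 5 of 7 osteoblast markers (2474 and 3573 against 276) and 6 of 18 immediate early genes (5046 and 5827 against 2738). Over all genes limma called 8.56% higher and 6.42% lower in CAR cells. All 18 immediate early genes were among the 4985 brightest genes, of which 25.4% were called higher. Brightness was ranked by the mean of the 3 arrays, 2 of them CAR, so genes high in CAR cells entered this set more easily. The lists were chosen with earlier results of these data known, so the CAR stroma count is no independent check of the sort. Fibroblast markers summed to 611 and 874 against 3356 (7 of 12 lower, 1 higher) and chondrocyte markers to 217 and 245 against 1844 (3 of 12 lower). No marker can be read as absent, because the values are intensities without detection calls. These groups of markers moved with the comparison, and their part in the members' differences was not tested. In such bulk samples, fewer cells of a type and less RNA per cell cannot be told apart. All genes together had an interquartile range of 1.96 and 2.28 log2 units in CAR cells but 1.35 in PaS cells. Bright genes also tended to lie higher in CAR cells, and the cause was not tested.

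Of the 52 measured members, 23 rose in CAR cells relative to the library labelled PaS (limma, Benjamini-Hochberg adjusted p under 0.05 over all genes), while 8.56% of all genes did. None fell by that test, against 6.42% of all genes, although at an unadjusted p under 0.05 limma gave 33 members higher and 1 lower. At that unadjusted level limma gave 3409 of all 19938 genes higher and 3595 lower. The median log2 difference, CAR minus PaS, was 1.23 over the members and -0.10 over all genes tested. The members are bright: 45 of them belonged to the 4985 brightest genes, and 22 of those 45 rose. Of all 4985, 25.4% rose and 3.69% fell, with a median difference of 0.63. The ranking behind this set weighs the CAR arrays 2 to 1, so its shares are not a neutral baseline. The PaS array lay below both CAR arrays for 42 members, against 37.4% of all genes, between them for 7 (Ppib, Fkbp14, Erp29, Sil1, Rcn2, Ern1 and Eif2ak3), and above both for P4ha3, Ero1l and Ero1lb, against 46.8% of all genes. At least 2-fold higher on both CAR arrays were 27 members, against 10.9% of all genes, and P4ha3 was at least 2-fold lower on both, as were 8.92% of all genes. With 2 arrays against 1, the spread comes from the CAR arrays alone, and an exact permutation test of a single gene cannot go below p = 0.333. Adding 16 to each intensity before the log2, which damps dim values, left limma with 0 calls among all genes. The 23 members then had adjusted p between 0.0539 and 0.147. At an unadjusted p under 0.05, limma then gave 33 members, 31 of them higher in CAR cells. Of all 19938 genes it gave 3151 higher and 2634 lower at that level. With the arrays centred on their medians 30 members were higher and 1 lower (12.3% and 9.59% of all genes). A robust prior gave 28 and 1 (10.9% and 8.92%), and an intensity trend in the variance 18 and 1 (8.09% and 8.78%). Averaging each gene's probe sets gave 22 and 0 (8.35% and 6.22%), with 1 member lower at an unadjusted p under 0.05. In the 9969 genes left after dropping those dimmer than the median gene there were 27 and 0 (20.7% and 5.12%). At an unadjusted p under 0.05 this filter also left 0 members lower. The filter too weighs the CAR arrays 2 to 1, so it drops genes low in CAR cells more easily. It dropped P4ha3, the only member lower at an unadjusted p under 0.05 as deposited. The 0 lower members under this filter are therefore no separate check.

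**Figure D1:**
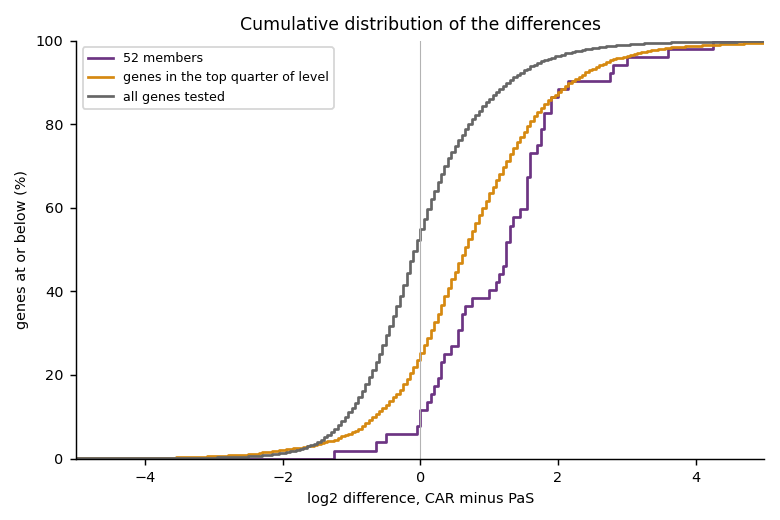
Cumulative share of genes (vertical axis, percent) at or below each log2 difference between CAR and PaS (horizontal axis), for the 52 members, the 4985 brightest genes (top of the ranking by mean level) and all 19938 genes tested. The members' curve lies to the right of the others over most of its length, with a median of 1.23 against 0.63 and -0.10.

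By role, 11 of 19 measured genes of collagen modification rose, with a median difference of 1.54, and 12 of 33 genes of general folding and its stress response, with a median of 1.20 (1.11 and 0.68 after quantile normalization); the difference between these roles was not tested. The widest differences belonged to P3h2, Calu, Rcn3, Pcolce and Fkbp9, and the 6 stress sensors and factors had a median of 0.31, which turned to -0.06 after quantile normalization. The levels of all members by array show the CAR arrays close together for most genes and the PaS array to their left.

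**Figure D2:**
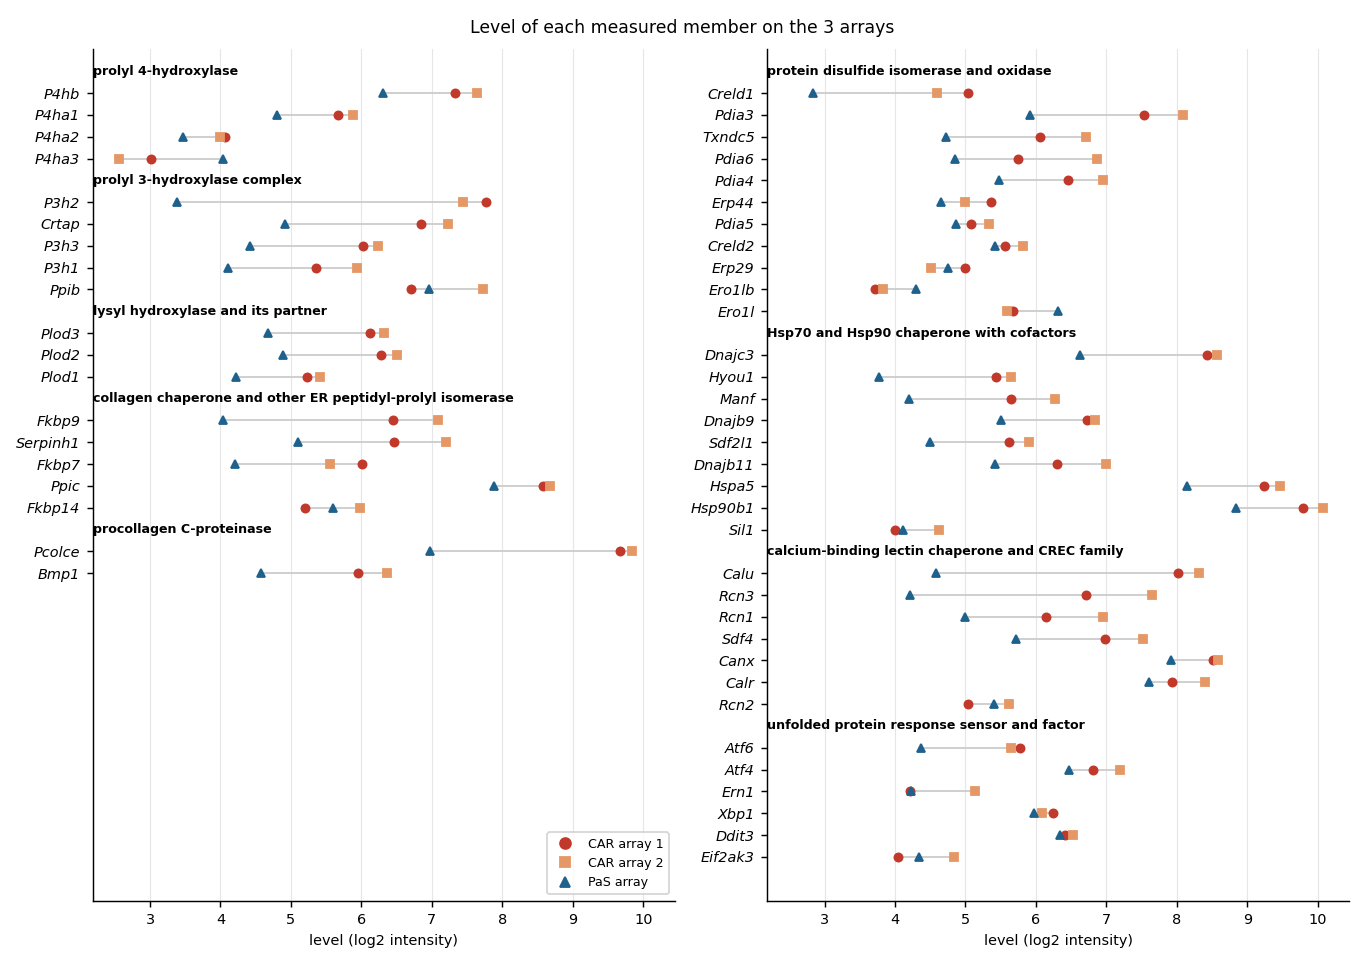
Log2 intensity (horizontal axis) of each of the 52 measured members on CAR array 1 (circles), CAR array 2 (squares) and the PaS array (triangles), grouped by role; a grey line joins the lowest and the highest array. Levels are comparable along a line and not between genes, and the PaS triangle lies left of both CAR symbols for 42 genes.

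**Figure D3:**
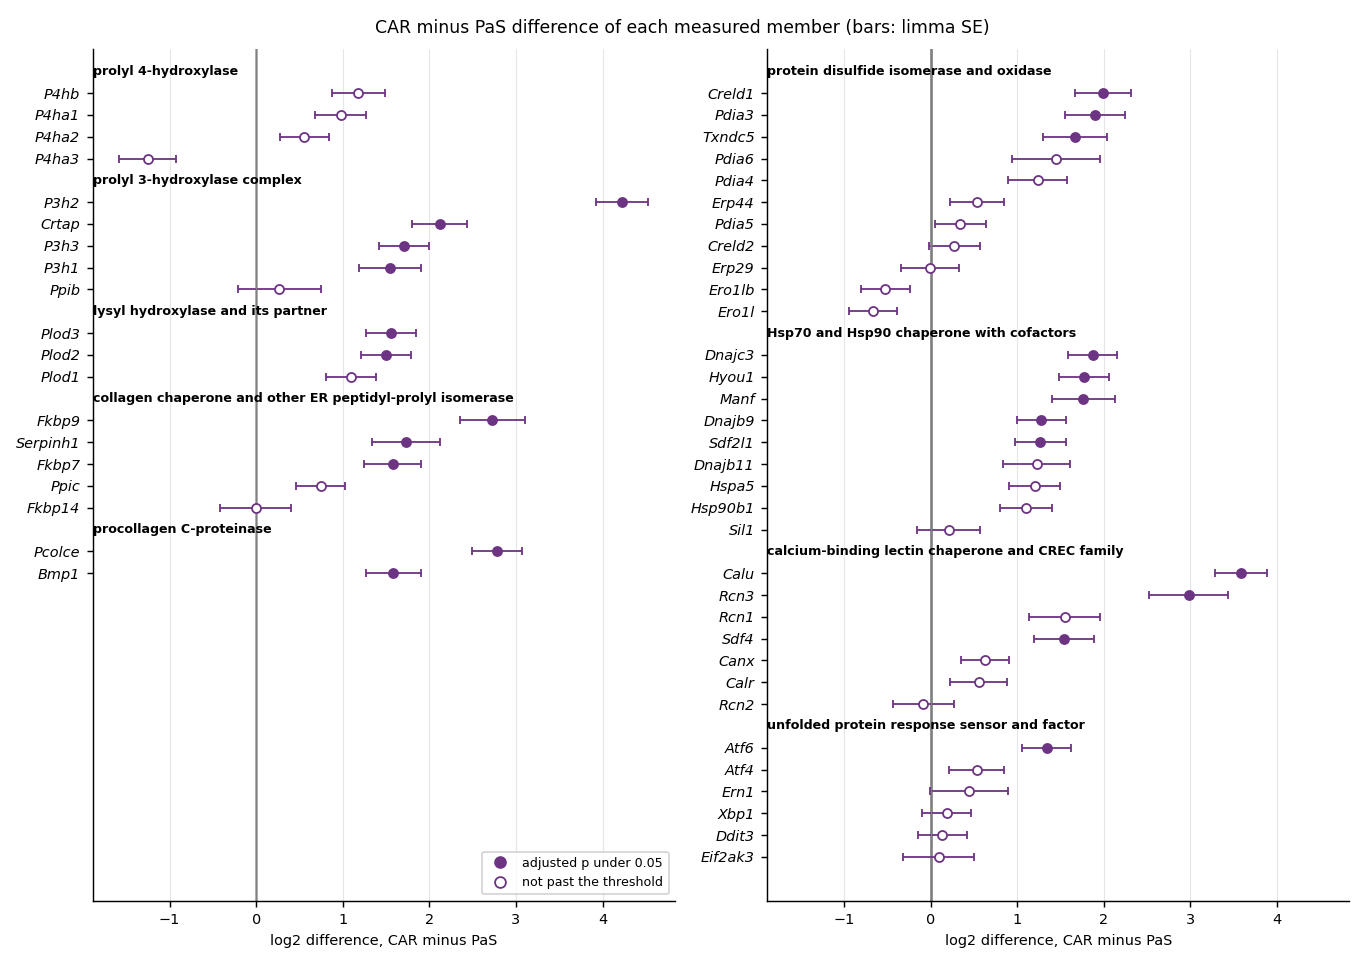
Log2 difference between CAR and PaS (horizontal axis) for each measured member, grouped by role, with bars for limma's moderated standard error from 2 CAR arrays and 1 PaS array. Filled points mark the 23 members with an adjusted p under 0.05, all to the right of 0.

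Prolyl 3-hydroxylases modify a few prolines of collagen, and a complex with Crtap and Ppib holds the chain for folding. Of these 3-hydroxylases and partners, 4 of 5 genes rose. P3h2, a 3-hydroxylase known for its action on basement membrane collagen, had log2 intensities of 7.77 and 7.44 in CAR cells and 3.38 in PaS cells. The CAR arrays lay together far above the PaS array, a difference of 4.22 ± 0.31 (SE) or 18.7-fold (limma adjusted p = 0.00914). The PaS value of P3h2 lay below the median of all genes on that array, 3.77, so the size of its fold is uncertain. Crtap, the cartilage-associated protein that carries the complex, stood at 6.84 and 7.24 against 4.92, 4.34-fold higher (adjusted p = 0.0229). P3h3 stood at 6.03 and 6.23 against 4.42 (3.27-fold, adjusted p = 0.0275), and P3h1, the 3-hydroxylase of fibrillar collagen, at 5.35 and 5.94 against 4.10 (2.92-fold, adjusted p = 0.0477). The call of P3h1 was lost with an intensity trend in the variance (adjusted p = 0.0506). Ppib, cyclophilin B, the isomerase of the same complex, did not follow in these values. Its CAR arrays stood 1.02 log2 units apart, at 6.71 and 7.73, with the PaS array between them at 6.95 (difference 0.27 ± 0.48, adjusted p = 0.725).

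Prolyl 4-hydroxylase, whose 4-hydroxyproline keeps the triple helix stable at body temperature, is built from a catalytic alpha subunit and the disulfide isomerase encoded by P4hb. None of its 4 genes passed limma's adjusted test, and at an unadjusted p under 0.05 there were 2 higher and 1 lower. P4ha1, the main alpha subunit in most cells, stood at 5.66 and 5.89 against 4.80 (difference 0.98 ± 0.29, adjusted p = 0.0803), and P4hb at 7.32 and 7.65 against 6.31 (1.18 ± 0.30, adjusted p = 0.0596). For both, the CAR arrays lay above the PaS array. P4hb passed with dim genes left out (adjusted p = 0.0463), with arrays centred (0.0339) and with a robust prior (0.0442). It missed the threshold after quantile normalization (0.0795) and with an intensity trend (0.0767). P4ha2 stood at 4.06 and 3.996 against 3.47 (0.56 ± 0.28, adjusted p = 0.222). P4ha3 ran the other way, at 3.01 and 2.57 against 4.04 (-1.25 ± 0.33, adjusted p = 0.0604), and passed as lower in CAR cells with arrays centred (0.0367), quantile normalization (0.0174), an intensity trend (0.0487) and a robust prior (0.0425). It is the only measured member whose mean over the 3 arrays lay below the median of all genes.

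Lysyl hydroxylases prepare collagen for sugar attachment and cross-linking, and 2 of the 3 measured rose. Plod2, which hydroxylates the telopeptides used in cross-links, stood at 6.28 and 6.51 against 4.89 (2.83-fold, adjusted p = 0.0357). Plod3, which also carries glycosyltransferase activity, stood at 6.12 and 6.33 against 4.67 (2.94-fold, adjusted p = 0.0328). Plod1, which acts on the helical part, stood at 5.23 and 5.41 against 4.22 and missed the threshold (difference 1.10 ± 0.29, adjusted p = 0.0610), though it passed with arrays centred (0.0378) and with a robust prior (0.0478). It also missed after quantile normalization (0.0504) and with an intensity trend (0.0734). For all 3 lysyl hydroxylases the PaS array was the lowest.

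Of the collagen chaperone and the other isomerases, 3 of 5 rose. Serpinh1, the collagen-specific chaperone Hsp47, stood at 6.46 and 7.20 against 5.10, a 3.32-fold difference (adjusted p = 0.0472; 0.0503 with an intensity trend). Fkbp9 stood at 6.44 and 7.09 against 4.04, 6.63-fold higher (2.73 ± 0.37, adjusted p = 0.0198), and Fkbp7 at 6.01 and 5.55 against 4.20, 2.99-fold (adjusted p = 0.0397). Both are FK506-binding prolyl isomerases of the ER lumen. Fkbp14, a relative that acts on collagen, had its PaS value of 5.60 between the CAR values of 5.20 and 5.98 (difference -0.01 ± 0.41, adjusted p = 0.993). Ppic, cyclophilin C, was bright on all arrays, at 8.58 and 8.68 against 7.89 (0.75 ± 0.28, adjusted p = 0.129).

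Both members that act in C-propeptide removal rose. Among other genes of collagen processing, the propeptide proteinases Adamts3, Adamts14, Tll1 and Tll2 were not called (differences 0.27, 0.75, -0.64 and -0.23). Pcolce, the enhancer of the procollagen C-proteinase, stood at 9.67 and 9.84 against 6.97, a difference of 2.78 ± 0.29 or 6.88-fold (adjusted p = 0.0129). The CAR arrays lay 0.17 log2 units apart and far above the PaS array. The PaS value was itself bright, far above the median of all genes on that array, 3.77. Bmp1, the proteinase itself, stood at 5.96 and 6.37 against 4.58 (1.59 ± 0.32, adjusted p = 0.0375).

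Disulfide isomerases and oxidases form and rearrange disulfide bonds. In the group listed under them, which also holds related proteins, 3 of 11 rose. Of the 9 that belonged to the 4985 brightest genes, 2 rose (22.2%), below the 25.4% of all those bright genes. Pdia3, the isomerase that works with the lectin chaperones, stood at 7.54 and 8.09 against 5.92 (3.72-fold, adjusted p = 0.0322). Txndc5, a thioredoxin-domain isomerase, stood at 6.06 and 6.71 against 4.72 (3.17-fold, adjusted p = 0.0451). Creld1 stood at 5.04 and 4.60 against 2.83 (3.97-fold, adjusted p = 0.0264), where the PaS value is dim and its fold uncertain; its ER-resident relative Creld2 stood at 5.56 and 5.82 against 5.41 (0.27 ± 0.29, adjusted p = 0.554). Pdia6 stood at 5.74 and 6.86 against 4.85 (1.45 ± 0.51, adjusted p = 0.113). Here the CAR arrays lay further from each other than the lower of them lay from PaS. Pdia4 stood at 6.46 and 6.95 against 5.47 (1.23 ± 0.34, adjusted p = 0.0668), and passed with dim genes left out (0.0476), with arrays centred (0.0354) and with a robust prior (0.0475). It missed after quantile normalization (0.109), with an intensity trend (0.0810) and with its probe sets averaged (0.131). A dimmer probe set of Pdia4 stood at 4.09 and 2.99 against 3.19 (difference 0.35), so its 2 probe sets disagree in size. Differences of 0.34, 0.53 and -0.01 were measured for Pdia5, Erp44 and Erp29, with adjusted p of 0.453, 0.281 and 0.991.

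The ER oxidases, which pass electrons from disulfide isomerases to oxygen, lay in the opposite direction. Ero1l, now named Ero1a, stood at 5.68 and 5.60 in CAR cells and 6.31 in PaS cells (-0.67 ± 0.28, adjusted p = 0.160). After quantile normalization its difference was -1.18 and passed (adjusted p = 0.0168). It missed with arrays centred (0.174), with dim genes left out (0.187), with an intensity trend (0.2165) and with a robust prior (0.159). Ero1lb, now Ero1b, stood at 3.72 and 3.83 against 4.30 (-0.52 ± 0.28, adjusted p = 0.248). For both oxidases the CAR arrays lay close together and below PaS, while their partner P4hb and 8 of the 11 genes of the group had PaS as the lowest array.

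Of 9 genes of the Hsp70 and Hsp90 chaperones of the ER and their cofactors, 5 rose. Dnajc3, a J-domain cofactor of BiP that also restrains PERK, stood at 8.43 and 8.57 against 6.63 (3.67-fold, adjusted p = 0.0231). Hyou1, an exchange factor for BiP, stood at 5.43 and 5.65 against 3.77 (3.40-fold, adjusted p = 0.0265), and Manf, a secreted factor made under ER stress, at 5.64 and 6.27 against 4.19 (3.40-fold, adjusted p = 0.0398). Dnajb9 stood at 6.73 and 6.84 against 5.50 (2.43-fold, adjusted p = 0.0441), and Sdf2l1 at 5.62 and 5.90 against 4.49 (2.41-fold, adjusted p = 0.0498). The calls of these last genes were near the threshold: with an intensity trend their adjusted p was 0.0580 and 0.0599, that of Dnajb9 was 0.0726 after quantile normalization, and that of Sdf2l1 was 0.0502 with each gene's probe sets averaged. Hspa5, which encodes BiP, the central Hsp70 of the ER, stood at 9.23 and 9.47 against 8.15 (2.30-fold, 1.20 ± 0.29, adjusted p = 0.0532). Hsp90b1, which encodes the ER Hsp90 Grp94, stood at 9.79 and 10.07 against 8.83 (2.14-fold, adjusted p = 0.0661). Both lay higher on each CAR array and missed the threshold as deposited. They passed after quantile normalization (adjusted p = 0.0133 and 0.0129) and with arrays centred (0.0297 and 0.0404), and Hspa5 also with dim genes left out (0.0410) and with a robust prior (0.0390). Both missed with an intensity trend (0.0571 and 0.0645), and Hsp90b1 also with dim genes left out (0.0551) and with a robust prior (0.0515). Dnajb11 stood at 6.29 and 6.99 against 5.42 (adjusted p = 0.0898, and 0.0484 with arrays centred). It missed with dim genes left out (0.063), with a robust prior (0.0644), with an intensity trend (0.103) and after quantile normalization (0.142). Sil1, another exchange factor for BiP, had PaS between the CAR arrays, at 4.01 and 4.62 against 4.11 (adjusted p = 0.721).

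Many chaperone genes carry the ER stress response element (ERSE) in their promoters, where ATF6 and XBP1 act with the CCAAT-binding factor NF-Y. It was searched as CCAAT, then 9 bases of any kind, then CCACG, on both strands, in windows from 250 bases before to 50 after each RefSeq start site on GRCm38.p6, and matched to members by gene identifier. Of 42 members with a promoter in the table, 8 (19%) held it, against 0.119% of all 32851 promoters and 0.135% of 15562 tested genes with a promoter. The windows are shown to let the 8 members that hold the element be compared (34 of the 42 lack it). Each window is written 5′ to 3′ on the gene's strand, with the element in capitals and 12 flanking bases in lower case. Where the capitals begin with CGTGG, the element lies on the opposite strand.
Hspa5, chr2:34772013-34772055 (+): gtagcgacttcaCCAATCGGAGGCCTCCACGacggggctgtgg
Hsp90b1, chr10:86705521-86705563 (-): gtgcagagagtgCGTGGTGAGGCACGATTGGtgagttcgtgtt
Hsp90b1, chr10:86705626-86705668 (-): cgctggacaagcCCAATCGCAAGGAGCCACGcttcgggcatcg
Dnajc3, chr14:118937815-118937857 (+): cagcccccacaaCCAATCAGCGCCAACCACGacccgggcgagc
Pdia6, chr12:17266479-17266521 (+): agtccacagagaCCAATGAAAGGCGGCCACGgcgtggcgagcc
Calr, chr8:84847063-84847105 (-): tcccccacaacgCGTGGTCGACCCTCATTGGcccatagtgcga
Canx, chr11:50325788-50325830 (-): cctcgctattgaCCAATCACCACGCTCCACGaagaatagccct
Creld2, chr15:88819508-88819550 (+): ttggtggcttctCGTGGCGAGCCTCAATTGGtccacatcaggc
Ero1lb, chr13:12565670-12565712 (+): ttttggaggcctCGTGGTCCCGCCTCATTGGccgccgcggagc

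The element of Hspa5 spans bases 65 to 47 upstream of the start site, and that of Dnajc3 bases 105 to 87. Of the 8 members with the element only Dnajc3 rose, with a median difference of 0.86, whereas 16 of the 34 without it rose, with a median of 1.23. After quantile normalization 3 of the 8 and 15 of the 34 were called higher, with medians of 0.77 and 0.72, so the gap between the medians depends on the scaling. The remaining 13 tested genes with the element had a median of -0.13, with 1 called higher. A shorter form, ERSE-II (ATTGG, 1 base of any kind, CCACG), lay in the Dnajb11 promoter window alone among the members (0.0365% of all promoters), and UPRE, searched as TGACGTGG, in that of Txndc5 alone (0.676% of all promoters). Each of these forms holds CCACG or its reverse complement CGTGG, so they overlap in letters. A match describes letters in a window and shows no binding.

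The calcium-binding proteins differed widely among themselves, and 3 of 7 rose. Calu, calumenin, an EF-hand protein of the secretory pathway, stood at 8.02 and 8.31 against 4.58, a difference of 3.59 ± 0.30 or 12-fold (adjusted p = 0.0107). Rcn3, a reticulocalbin of the same family that is known to act in collagen secretion, stood at 6.71 and 7.65 against 4.21 (7.87-fold, 2.98 ± 0.45, adjusted p = 0.0235). The CAR arrays of Rcn3 lay 0.94 log2 units apart, yet the lower of them was well above PaS. Sdf4, the Golgi member of the family, stood at 6.98 and 7.52 against 5.71 (2.91-fold, adjusted p = 0.0458; 0.0523 with an intensity trend). Rcn1 stood at 6.14 and 6.95 against 4.999 (2.92-fold, adjusted p = 0.0641), and passed with dim genes left out (0.0350), with arrays centred (0.0270) and with a robust prior (0.0398). It missed after quantile normalization (0.0501) and with an intensity trend (0.0689). Rcn2 had PaS between the CAR arrays, at 5.04 and 5.61 against 5.41 (-0.08 ± 0.35, adjusted p = 0.889). The lectin chaperones were bright on all arrays. Calr, calreticulin, stood at 7.93 and 8.40 against 7.61 (0.56 ± 0.33, adjusted p = 0.287), and Canx, calnexin, at 8.51 and 8.58 against 7.92 (0.63 ± 0.28, adjusted p = 0.179). Both missed the threshold with the PaS array as the lowest.

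Of the 6 sensors and factors of the unfolded protein response, Atf6 rose. Of the 4 that belonged to the 4985 brightest genes, 25% rose, near the 25.4% of all those bright genes. Atf6, a membrane-bound factor that is cut to release a transcription factor for chaperone genes, stood at 5.78 and 5.65 against 4.37 (2.53-fold, 1.34 ± 0.28, adjusted p = 0.0407). Eif2ak3, which encodes the sensor kinase PERK, stood at 4.04 and 4.84 with PaS between at 4.35 (0.09 ± 0.41, adjusted p = 0.896), and Ern1, which encodes IRE1, at 4.22 and 5.13 with PaS at 4.23 (0.44 ± 0.45, adjusted p = 0.523). For both kinases the CAR arrays lay wider apart than their mean lay from PaS. Xbp1, whose mRNA is spliced by IRE1, stood at 6.24 and 6.08 against 5.98 (0.18 ± 0.28, adjusted p = 0.683), Atf4, the factor translated under PERK, at 6.81 and 7.20 against 6.47 (0.53 ± 0.32, adjusted p = 0.291), and Ddit3, which encodes CHOP, at 6.41 and 6.53 against 6.33 (0.14 ± 0.28, adjusted p = 0.765). A level of Xbp1 mRNA does not show its splicing. The differences of Xbp1, Ddit3 and Eif2ak3 changed sign after quantile normalization, to -0.39, -0.40 and -0.16.

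The CAR arrays also differed from each other across these genes. CAR array 2 lay above CAR array 1 for 42 of the 52 members, by a median of 0.27 log2 units, while it did so for 48.6% of all genes and 70.4% of the 4985 brightest genes. All 9 Hsp70 and Hsp90 chaperone genes and all 7 calcium-binding genes were among the 42. The widest gaps were those of Pdia6 (1.12), Ppib (1.02) and Rcn3 (0.94). With only CAR array 1 against PaS the median difference of the members was 1.01, and with only CAR array 2 it was 1.34.

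Quantile normalization, which gives all arrays the same distribution, kept 22 of the 23 calls (all but Dnajb9) and lowered the median difference from 1.23 to 0.85, while it moved the median of all genes by 0.13. It gave 24 members higher and 2 lower (P4ha3 and Ero1l), where 14.3% and 12.8% of all genes were called. P3h2, Calu, Rcn3, Pcolce, Fkbp9 and Creld1 kept differences of 4.32, 3.35, 2.70, 2.60, 2.50 and 2.25. The 2-fold count on both CAR arrays was then 17 instead of 27.

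**Figure D4:**
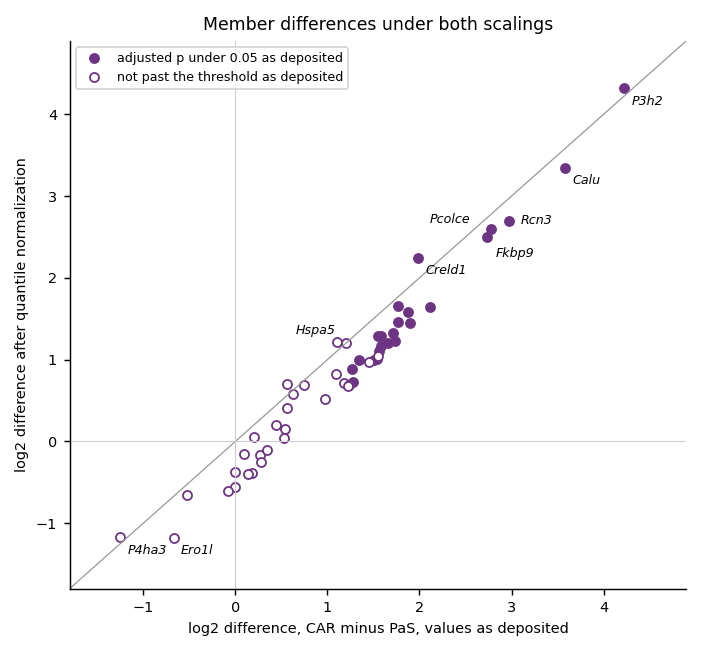
Log2 difference between CAR and PaS of each measured member from the values as deposited (horizontal axis) and after quantile normalization (vertical axis), with the line of equality; filled points are the 23 members that passed as deposited. Most points lie under the line, and P3h2, Calu and Rcn3 remain at the upper end.

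Neighbouring steps of the secretory pathway were read from lists of other genes. Of 22 collagen chains, the substrates of the enzymes above, 6 were higher in CAR cells and 1 lower, with a median of 0.54: Col8a1 (11.3-fold, adjusted p = 0.0103), Col12a1 (4.65-fold) and Col6a2 (3.44-fold) led, and Col14a1 was lower (-1.18, adjusted p = 0.0498). The main fibrillar chains did not pass. Col1a1 stood at 5.30 and 5.63 against 6.28, Col3a1 at 4.89 and 4.89 against 5.98, and Col1a2 at 7.19 and 7.35 against 6.19, so that Col1a1 and Col3a1 had PaS as the highest array and Col1a2 as the lowest. Of 16 other genes of collagen processing, 5 were higher, led by the lysyl oxidases Loxl1 (7.28-fold, adjusted p = 0.0123), Lox (6.42-fold) and Loxl3 (5.80-fold). Pcolce2, a relative of Pcolce, was lower: it stood at 2.63 and 2.43 against 4.77 (difference -2.24, adjusted p = 0.0185), while Pcolce was higher.

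The translocon and signal peptidase, through which chains enter the ER, had 11 of 23 genes higher and 1 lower, with a median of 1.17. Sec11a, a catalytic subunit of signal peptidase, stood at 5.91 and 6.98 against 3.85 (6.03-fold, adjusted p = 0.0341), Ssr2 was 4.16-fold and Ssr3 3.61-fold higher, and the alternative catalytic subunit Sec11c was the lower gene, at 4.51 and 4.91 against 6.18 (adjusted p = 0.0429). For oligosaccharyl transfer and the calnexin cycle, 5 of 18 were higher, among them Ostc (12.3-fold), Rpn2 (3.17-fold) and Stt3a (2.76-fold), with a median of 0.84. For ER-associated degradation 4 of 18 were higher, among them Erlec1 (5.04-fold), Dnajc10 (4.44-fold) and Faf2 (3.76-fold), with a median of 0.98. For COPII export 7 of 23 were higher, with a median of 1.08; Ctage5, a partner in collagen export, was 5.38-fold, Lman1, a cargo receptor, 5.32-fold and Tfg 4.38-fold higher. Of 13 other redox enzymes 3 were higher: the peroxidases Gpx8 (44.2-fold) and Prdx4 (4.75-fold), and the sulfhydryl oxidase Qsox1 (2.64-fold). Gpx8 stood at 8.58 and 9.14 against 3.39, a PaS value below the median of all genes, so its fold is uncertain in size, as are those of Ostc, Faf2 and Ctage5, whose PaS values of 3.44, 3.31 and 3.61 also lay below that median. Of 20 other genes of the unfolded protein response 2 were higher, Creb3l1 (7.52-fold, 6.97 and 6.88 against 4.02, adjusted p = 0.0119), a membrane-bound factor for collagen genes in bone, and its relative Creb3 (2.48-fold). All other genes named here with a fold had a limma adjusted p under 0.05. Called higher were 8.56% of all genes and 25.4% of the 4985 brightest; within the brightest genes the share was 50% for the translocon and signal peptidase, 57.1% for other collagen processing, 50% for collagen chains, 41.2% for COPII export, 30.8% for oligosaccharyl transfer, 22.2% for other redox enzymes, 21.4% for ER-associated degradation and 20% for other unfolded protein response genes, the last 3 below the 25.4%. Quantile normalization called 14.3% of all genes higher and 12.8% lower. It gave 5 higher and 2 lower for other unfolded protein response genes, with a median of 0.41. The translocon and signal peptidase had 10 higher and 3 lower, and collagen chains 6 and 3. Oligosaccharyl transfer had 4 higher and 1 lower, ER-associated degradation 3 and 1, COPII export 10 and 0, and other redox enzymes 3 and 0. Other collagen processing kept 5 and 1, with a median of 0.45 against 0.44 as deposited. Quantile normalization lowered the medians of the translocon, oligosaccharyl, ER-associated degradation, COPII and other redox lists to 0.74, 0.41, 0.65, 0.69 and 0.25. That of collagen chains fell to 0.37.

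**Figure D5:**
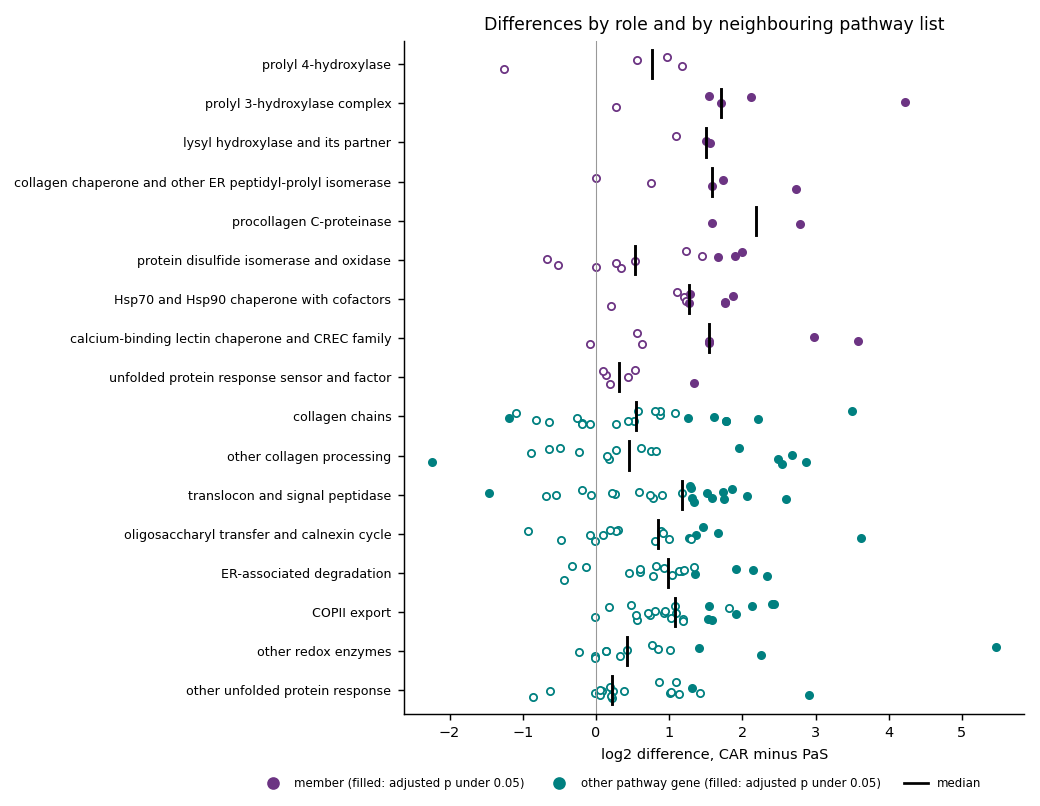
Log2 difference between CAR and PaS (horizontal axis) of every measured gene in the 9 roles of the members and in 8 lists of neighbouring pathway genes; filled points have an adjusted p under 0.05 and black bars are medians. Medians run from 0.22 for other unfolded protein response genes to 2.18 for the procollagen C-proteinase genes.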

How the data were processed

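The deposited values are linear signal intensities, 1 per probe set, which the authors made with Affymetrix Expression Console and RMA, per the submitters' processing notes; no version or genome build is given in the sources used here. Of 35556 probe sets, 21789 carried 1 symbol in the platform annotation, 1621 carried several and were not used, and 12146 were unnamed here. Log2 was taken with no pseudocount. CAR and PaS were compared with limma 3.58.1 in R 4.3.3 (lmFit, eBayes) on cell type alone; p-values are two-sided, adjusted by Benjamini-Hochberg over the 19938 genes, and called at 0.05. The fit has 1 residual degree of freedom, plus 4.20 prior ones around a prior SD of 0.25 log2 units, so the lone PaS library is taken to vary as the CAR libraries do. Precision is limited by the number of arrays. The fit was tested on simulated data in which the PaS array varied as the CAR arrays do. That test cannot check whether the real PaS library does so. The members, lists and alternatives were chosen with earlier results of these data known. Named are all members, the sort genes and up to 3 called genes with the largest differences per list. Col1a1, Col1a2, Col3a1, Col14a1, Pcolce2, Sec11c, Adamts3, Adamts14, Tll1 and Tll2 were named after their values were seen. Some spellings are older, such as Ero1l. Promoter windows are from RefSeq, GRCm38.p6. Alternatives were centring, quantile normalization, the mean of probe sets, an offset of 16, a filter on dim genes, other variance priors and leaving out each CAR array.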

Additional observations from a re-analysis of the deposited data

How the results depend on the processing

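Over all genes, quantile normalization gave 2852 calls higher and 2545 lower instead of 1706 and 1281, log2(intensity + 16) gave 0 and 0 (5785 genes at an unadjusted p under 0.05 in limma), and leaving out genes dimmer than the median gene gave 510 lower. For the members, log2(intensity + 16) gave 0 calls higher instead of 23. Calls of members lower in CAR cells, 0 as deposited, were 1 with arrays centred, 2 after quantile normalization, 1 with an intensity trend and 1 with a robust prior. Members at least 2-fold higher on both CAR arrays, 27 as deposited, were 17 after quantile normalization and 14 with log2(intensity + 16); those at least 2-fold lower, 1 as deposited, were 2 after quantile normalization, 0 with log2(intensity + 16) and 0 with dim genes left out, P4ha3 among them. The members' median difference of 1.23 was 0.85 after quantile normalization and 0.99 with log2(intensity + 16). The cause of these shifts was not tested. The filter on dim genes weighs the CAR arrays 2 to 1, so it drops genes low in CAR cells more easily. Some differences near 0 changed sign: after quantile normalization Ppib (-0.16), Pdia5 (-0.10), Creld2 (-0.26), Xbp1 (-0.39), Ddit3 (-0.40) and Eif2ak3 (-0.16), with arrays centred Fkbp14 (0.0205) and Erp29 (0.0196), and with log2(intensity + 16) Fkbp14 (0.0052) and Erp29 (0.00021). Of the 23 members called higher, 18 were called under each of the 6 tested alternatives other than log2(intensity + 16), under which none was. Without each CAR array in turn, the median ran from 1.01 to 1.34 and the 2-fold count from 27 to 32, with no test, since 1 array then stands against 1. No paired analysis was possible because the CAR and PaS arrays came from different mice.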
